A study of Homo sapiens and Mus musculus with 18 samples.

Results

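The genes followed here through gastruloid development in human and mouse were 10 targets and feedback regulators of the canonical WNT pathway: AXIN2, LEF1, TCF7, SP5, NKD1, DKK1, RNF43, ZNRF3, LGR5 and RSPO3. They were chosen by symbol through the GENCODE annotation. All 10 were found among the 44910 human genes counted, and the 10 mouse genes of the same name were found among 29720. All 20 genes passed the filter on low counts. RNA-seq of 18 samples was used, with 2 biological replicates for each of 9 groups. Human cells came from the H9 line in the naive and the primed state, from the RUES2-GLR line in the primed state, and from RA-gastruloids taken early, at 24 h, or late, at 120 h. RA-gastruloids are aggregates of RUES2-GLR cells that elongate and pattern in culture. Mouse groups were naive ESCs, primed EpiLCs, and early and late gastruloids, all from the E14Tg2a line.

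WNT input differed between several of the groups, per the study's methods. Naive H9 cells were chemically reset and grown in a medium with XAV939, a tankyrase inhibitor that stabilises AXIN proteins, at first on mouse feeder cells, which were later removed by passaging. Primed H9 and RUES2-GLR ESCs shared a medium, StemFlex, with no WNT agonist or inhibitor named. RUES2-GLR is an established line that carries fluorescent reporters. To make gastruloids, its cells were pretreated with CHIR99021, a GSK3 inhibitor that activates the pathway, together with retinoic acid (RA), and were aggregated with CHIR99021 until the early sample. Late RA-gastruloids had then been cultured with Matrigel and RA, without CHIR99021 being added. Mouse naive ESCs were grown with CHIR99021 as part of the 2i medium with LIF, and EpiLCs were kept in activin A and FGF without it. Mouse gastruloids were made from naive ESCs, not from EpiLCs. The early ones were taken at the end of a CHIR99021 pulse and the late ones after it had been removed. Both replicates of a stage came from 1 batch, as did all gastruloid samples, and how the other stages fell into batches was not given in the sources used here. Every p-value below thus measures the spread between cultures of a batch. Each line stands for 1 genotype.

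In canonical WNT signalling, a WNT ligand binds a Frizzled receptor and an LRP co-receptor, which keeps β-catenin from being destroyed by a complex of AXIN, APC and GSK3. β-catenin then enters the nucleus and joins TCF/LEF transcription factors on target genes. Many targets feed back on the pathway itself. Some damp it inside the cell or outside it, and others remove Frizzled from the membrane or are part of the R-spondin system that prevents this removal. In the embryo the pathway acts in the primitive streak and in the tail end of the elongating body axis.

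Promoter stretches are shown for 3 genes whose transcript levels spanned wide ranges, so that letters of the kind TCF/LEF factors bind can be read beside the values. The RefSeq table used here (GRCh38.p14) had entries for 6 of the 10 human genes, LEF1, TCF7, SP5, DKK1, RNF43 and RSPO3. AXIN2, NKD1, ZNRF3 and LGR5 had none. The 250 bases before each start were searched on both strands for the TCF/LEF letters CTTTGAA and also CTTTGAT, as well as CTTTGTA and also CTTTGTT, and matches are in capitals. Of 35116 promoter entries of this length, 12.0% held at least 1 match. SP5 (chr2:170715087-170715336, plus strand) held 3 matches, which begin 148, 109 and 84 bases before the start. DKK1 (chr10:52314031-52314280, plus strand) held 2, which begin 95 and 76 bases before the start. RSPO3 (chr6:127118421-127118670, plus strand) held 0. A match is a description of the letters and not of binding.
SP5: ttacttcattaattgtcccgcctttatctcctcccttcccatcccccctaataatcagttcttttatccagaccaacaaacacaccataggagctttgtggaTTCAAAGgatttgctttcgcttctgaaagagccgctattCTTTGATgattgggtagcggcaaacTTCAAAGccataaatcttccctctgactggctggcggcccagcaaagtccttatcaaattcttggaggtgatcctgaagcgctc
DKK1: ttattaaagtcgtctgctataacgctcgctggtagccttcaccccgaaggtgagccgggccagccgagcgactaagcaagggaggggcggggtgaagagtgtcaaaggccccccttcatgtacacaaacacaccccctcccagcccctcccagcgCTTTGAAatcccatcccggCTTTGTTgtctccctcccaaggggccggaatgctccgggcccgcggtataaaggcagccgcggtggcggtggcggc
RSPO3: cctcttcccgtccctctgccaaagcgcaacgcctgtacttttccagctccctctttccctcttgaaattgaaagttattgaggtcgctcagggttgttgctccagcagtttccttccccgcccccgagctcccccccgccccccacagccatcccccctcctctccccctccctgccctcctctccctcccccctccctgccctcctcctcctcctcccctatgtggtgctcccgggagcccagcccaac
Among the other entries, 1 of the 2 for TCF7 held a single match, and the 1 for LEF1 and both for RNF43 held 0. The LEF1 stretch, both of TCF7 and 1 of RNF43 lie inside the gene bounds given below. They thus do not cover the bases before the outermost annotated start. LEF1 is not shown, although its group means also spanned a wide range, from 0.295 to 224 CPM.

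Total counts ranged from 3681739 to 38771193 in human samples and from 6487157 to 20052505 in mouse samples, and RUES2-GLR replicate 2 was the shallowest. Levels are given as CPM (read counts divided by library size, scaled by TMM), with n = 2 for each mean ± SD. To be called, a gene needed an absolute log2 change above 1 and an adjusted p (edgeR's quasi-likelihood test, Benjamini-Hochberg) under 0.05. The labels were checked against markers. SUSD2, DPPA5 and DPPA3 stood at 1674, 1431 and 424 CPM in naive H9 ESCs and at 9.01 CPM or less in the other human groups. POU5F1 stood between 613 and 844 CPM in the 3 human ESC groups and at 0.5 CPM in late RA-gastruloids. NANOG stood between 18.3 and 76.9 CPM in the ESC groups and at 0.243 CPM in early RA-gastruloids. LIN28A, another pluripotency marker, was still at 711 CPM in early RA-gastruloids and at 147 CPM in late ones. SOX2 rose between these stages, from 92.7 to 321 CPM, and stood between 126 and 1285 CPM in the ESC groups. TBXT was at 126 CPM in early RA-gastruloids. In mouse, Fgf5 stood at 0.229 CPM in naive ESCs and at 52.7 CPM in EpiLCs, and T, the mouse TBXT, stood at 213 CPM in early gastruloids. Early mouse gastruloids also kept Esrrb, a naive marker, at 530 CPM, against 17.1 CPM in EpiLCs. Human reads of 5 fibroblast markers were checked too, although the feeders were mouse cells that had been removed. All 5 reached 1 CPM in naive H9 ESCs, with sums of 493 and 505 CPM against 267 to 1025 CPM in the other human samples. DCN and LUM, 2 of the 5, were at 7.12 and 1.85 CPM there and at 0 in both primed groups, and their part in the values below was not tested. In bulk samples, fewer cells of a type and less RNA per cell cannot be told apart.

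The main rise in human cells came between primed RUES2-GLR ESCs and early RA-gastruloids. Of the 10 genes, 8 were called higher, where 12.0% of all tested genes were higher, and 0 were called lower, where 17.6% of all tested genes were lower. Those that rose were RSPO3, LEF1, SP5, NKD1, LGR5, DKK1, TCF7 and AXIN2. The median log2 change of the 10 was 2.84, against 0.08 over all genes. Summed over the 10 genes, levels went from 127 and 125 CPM in the RUES2-GLR samples to 927 and 953 CPM in the early samples. Between early and late RA-gastruloids, RSPO3, RNF43, SP5 and LEF1 fell (4 of 10, against 13.2% of all tested genes) and LGR5 rose (1 of 10, against 11.8%). The sum dropped to 522 and 510 CPM. Markers of other cell types moved at this step too. The summed level of 3 somite markers, MEOX1, TCF15 and PAX3, went from 25.8 and 28.0 CPM to 403 and 361 CPM, and that of 3 neural tube markers, PAX6, SOX1 and NES, from 438 and 442 CPM to 980 and 852 CPM, with all 3 of each at 1 CPM or more in late samples. NES made up most of the neural tube sum, at 440 CPM in early and 782 CPM in late samples. It was also at 385 CPM in primed H9 and 336 CPM in RUES2-GLR ESCs. PAX6 rose from 0.247 to 100 CPM and SOX1 from 0.0961 to 33.9 CPM. The part of the somite and neural tube markers in the changes of the 10 genes was not tested. From RUES2-GLR ESCs to the late stage directly, the same 8 genes were higher (17.3% of all tested genes) and RNF43 was lower (21.0%). These 3 comparisons share samples.

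Mouse cells gave another order. Between naive ESCs and EpiLCs, Sp5, Axin2 and Dkk1 fell (3 of 10, against 12.1% of all tested genes), while Lef1 and Nkd1 rose (2 of 10, against 17.7%). From EpiLCs to early gastruloids 6 of 10 were called higher, where 11.7% of all tested genes were, and 0 were called lower, where 9.24% were. The 6 were Sp5, Rspo3, Axin2, Dkk1, Rnf43 and Lgr5, and the median log2 change was 2.13 against 0.01 over all genes. Set against naive ESCs, from which the gastruloids were made, 8 of 10 were higher in early gastruloids (16.2% of all tested genes) and 0 were lower (6.81%). The 2 not called were Sp5 and Znrf3. Between early and late gastruloids Dkk1, Lgr5, Nkd1 and Rspo3 rose (4 of 10, against 20.1%) and Sp5, Axin2 and Tcf7 fell (3 of 10, against 19.1%). At this step 3 somite markers went from a sum of 31.8 and 31.7 CPM to 155 and 151 CPM. Meox1 rose from 0.0934 to 138 CPM and Pax3 from 0.0247 to 3.1 CPM, while Tcf15 fell from 31.6 to 12.1 CPM. The sum of 3 endothelial markers went from 129 and 126 CPM to 210 and 210 CPM. Kdr rose from 0.934 to 132 CPM and Cdh5 from 0.0494 to 48.3 CPM, while Pecam1 fell from 126 to 29.8 CPM. The sum of 5 fibroblast markers went from 2.47 and 2.81 CPM to 161 and 171 CPM. All markers of these lists reached 1 CPM in late samples, and their part in the 10 genes' changes was not tested. From EpiLCs to late gastruloids 7 of 10 were higher (22.5%) and 0 lower (19.2%). The summed level was 186 and 188 CPM in naive ESCs, 160 and 174 CPM in EpiLCs, 431 and 432 CPM in early gastruloids, and 257 and 259 CPM in late gastruloids. The mouse comparisons share samples as well.

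**Figure D1:**
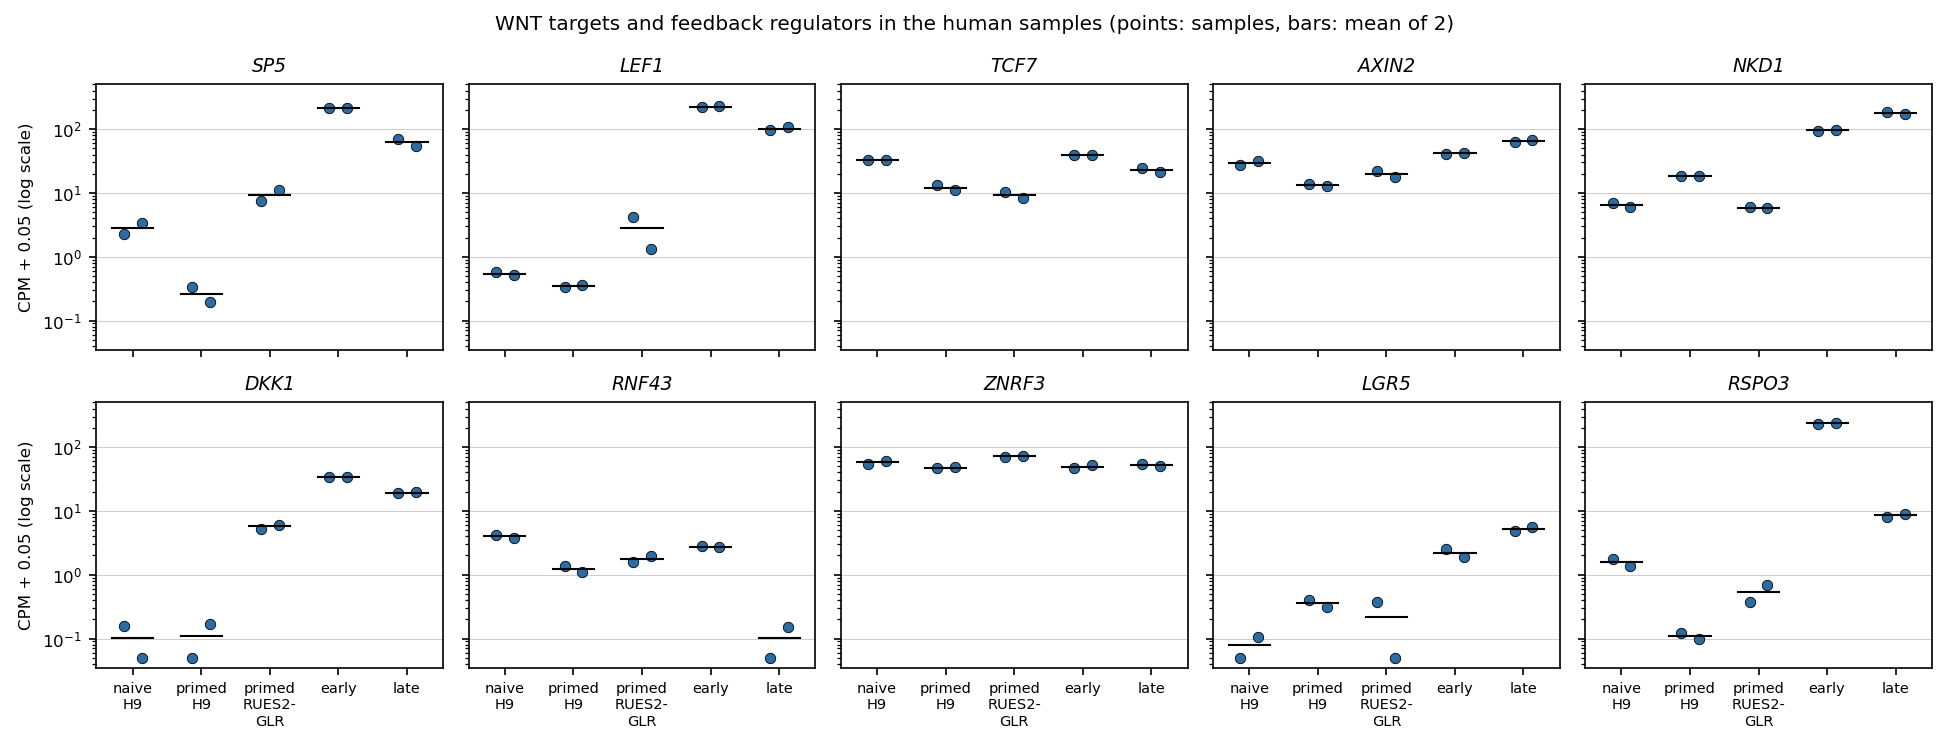
Level of each of the 10 genes in the 10 human samples, as CPM plus 0.05 on a log axis, by group. Points are samples and bars are means of 2 samples. RSPO3, LEF1 and SP5 stand above 200 CPM in both early RA-gastruloid samples, and ZNRF3 stays between 46.2 and 72.3 CPM in every sample.

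SP5 encodes a zinc finger transcription factor that acts at WNT target genes. The human gene lies at chr2:170715337-170718078 (GRCh38, plus strand). Its level was 2.25 and 3.27 CPM in naive H9 ESCs, 0.28 and 0.143 CPM in primed H9, 7.37 and 11.2 CPM in RUES2-GLR ESCs, 217 and 218 CPM in early RA-gastruloids, and 69.1 and 54.6 CPM in late ones. No 2 groups overlapped, and the order from high to low was early, late, RUES2-GLR, naive H9 and primed H9. It rose by 4.70 ± 0.18 on the log2 scale (SE, adjusted p = 2.73e-20) into early RA-gastruloids and fell by 1.80 ± 0.13 (SE, adjusted p = 3.57e-13) into late ones. Mouse Sp5 (GRCm39 chr2:70305267-70308073, plus strand) was at 45.2 and 44.9 CPM in naive ESCs, had 0 and 1 reads in EpiLCs, and stood at 56.4 and 60.6 CPM in early gastruloids and at 12.6 and 14.3 CPM in late ones. Thus the gene was nearly silent in EpiLCs and high both in naive ESCs and in early gastruloids. With 1 read in the EpiLC group, the ratio of naive to EpiLC was 988 (95% counting interval, 177 to 39030; edgeR adjusted p = 1.59e-35). Naive ESCs and early gastruloids differed by 0.37 ± 0.09 on the log2 scale (SE, adjusted p = 0.00014), below the fold threshold.

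LEF1 encodes a DNA-binding partner of β-catenin. An antisense RNA covers 5.2% of the human exon length, and reads from that stretch were not counted, as counting ignored strand. The human gene lies at chr4:108047545-108168956 (GRCh38, minus strand). It was at 0.523 and 0.459 CPM in naive H9 ESCs, 0.28 and 0.31 CPM in primed H9, 4.18 and 1.27 CPM in RUES2-GLR ESCs, 221 and 227 CPM in early RA-gastruloids and 96.1 and 108 CPM in late ones. Both gastruloid groups stood above all ESC samples. The rise from RUES2-GLR ESCs to the early stage was 6.0 ± 0.19 on the log2 scale (SE, adjusted p = 5.08e-22), and the fall to the late stage was by 1.14 ± 0.12 (SE, adjusted p = 2.15e-09). RUES2-GLR replicate 1 carried most of the reads of its group, and without it the rise into the early stage was 7.36. In mouse, Lef1 (GRCm39 chr3:130903919-131018005, plus strand) stood at 1.67 and 2.42 CPM in naive ESCs, 22.9 and 22.4 CPM in EpiLCs, 37.2 and 36.6 CPM in early gastruloids and 18.2 and 21.0 CPM in late ones. Against naive ESCs, Lef1 was higher in EpiLCs, where Sp5 and Axin2 were low, by 3.40 ± 0.19 on the log2 scale (SE, adjusted p = 2.60e-23). It was also higher in early gastruloids, which were made from naive ESCs, by 4.11 ± 0.17 (SE, adjusted p = 3.31e-29). The difference between EpiLCs and early gastruloids was 0.71 ± 0.10 on the log2 scale (SE, adjusted p = 1.43e-08), below the fold threshold.

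TCF7 encodes another TCF/LEF factor, at chr5:134114681-134151865 in human (GRCh38, plus strand). Human values were 32.5 and 32.6 CPM in naive H9 ESCs, 13.1 and 11.0 CPM in primed H9, 10.2 and 8.28 CPM in RUES2-GLR ESCs, 38.6 and 38.7 CPM in early RA-gastruloids and 24.3 and 21.0 CPM in late ones. The spread between groups was much narrower than for LEF1. It rose 4.01-fold into the early stage (log2 change 2.00, SE 0.17, adjusted p = 8.16e-12). Mouse Tcf7 (GRCm39 chr11:52143107-52174619, minus strand) had 76.7 and 76.2 CPM in naive ESCs, 102 and 114 CPM in EpiLCs, 175 and 172 CPM in early gastruloids and 61.4 and 65.7 CPM in late ones. Its highest group was also the early one, and it fell by 1.46 ± 0.07 on the log2 scale (SE, adjusted p = 1.05e-26) into late gastruloids.

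AXIN2 encodes a scaffold of the β-catenin destruction complex and is widely read as a reporter of WNT activity. The human gene lies at chr17:65528563-65561648 (GRCh38, minus strand), and 25.32% of its exon length is shared with another annotated gene on the same strand, so reads from that stretch were not counted. Its level was 26.9 and 31.3 CPM in naive H9 ESCs, 13.6 and 12.7 CPM in primed H9, 22.3 and 17.5 CPM in RUES2-GLR ESCs, 40.3 and 42.9 CPM in early RA-gastruloids and 62.8 and 67.8 CPM in late ones. The late stage was thus the highest, unlike for SP5 and LEF1. The change into the early stage was 1.00 ± 0.15 on the log2 scale (SE, adjusted p = 6.52e-07), at the fold threshold, and it lost the call in 6 other settings and without RUES2-GLR replicate 2 or early replicate 2 (0.86 to 0.98). From early to late it was 1.57-fold higher (adjusted p = 6.02e-05), below the fold threshold, and from RUES2-GLR ESCs to the late stage it rose 3.14-fold (log2 change 1.65, SE 0.14, adjusted p = 1.08e-11).

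Mouse Axin2 (GRCm39 chr11:108811169-108841609, plus strand) was at 43.8 and 45.8 CPM in naive ESCs, 4.73 and 6.32 CPM in EpiLCs, 110 and 111 CPM in early gastruloids and 28.4 and 24.1 CPM in late ones. The 4 groups did not overlap. It fell by 2.95 ± 0.13 on the log2 scale (SE, adjusted p = 1.33e-28) into EpiLCs, rose by 4.25 ± 0.11 (SE, adjusted p = 4.82e-39) from EpiLCs to early gastruloids and fell by 2.06 ± 0.09 (SE, adjusted p = 5.65e-29) into late ones. The highest groups were those sampled in CHIR99021, whose part was not tested.

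NKD1, at chr16:50548396-50649249 (GRCh38, plus strand), encodes a Dishevelled-binding antagonist. Human NKD1 was at 6.85 and 5.97 CPM in naive H9 ESCs, 18.5 and 18.4 CPM in primed H9, 5.98 and 5.73 CPM in RUES2-GLR ESCs, 94.8 and 97.0 CPM in early RA-gastruloids and 185 and 174 CPM in late ones. Naive H9 and RUES2-GLR samples overlapped, and the other groups did not. It rose 16.2-fold into the early stage (log2 change 4.02, SE 0.16, adjusted p = 9.17e-20) and was 1.87-fold higher again in the late stage (adjusted p = 1.96e-08), below the fold threshold. Mouse Nkd1 had 1.67 and 1.17 CPM in naive ESCs, 10.1 and 11.4 CPM in EpiLCs, 12.0 and 12.6 CPM in early gastruloids and 58.0 and 60.5 CPM in late ones. From naive ESCs it rose into EpiLCs (log2 change 2.99, SE 0.24, adjusted p = 2.18e-16) and into early gastruloids (3.15, SE 0.23, adjusted p = 3.97e-18). It rose again from early to late gastruloids (2.28, SE 0.11, adjusted p = 3.94e-27). Between EpiLCs and early gastruloids the log2 change was 0.15 ± 0.14 (SE, adjusted p = 0.332).

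**Figure D2:**
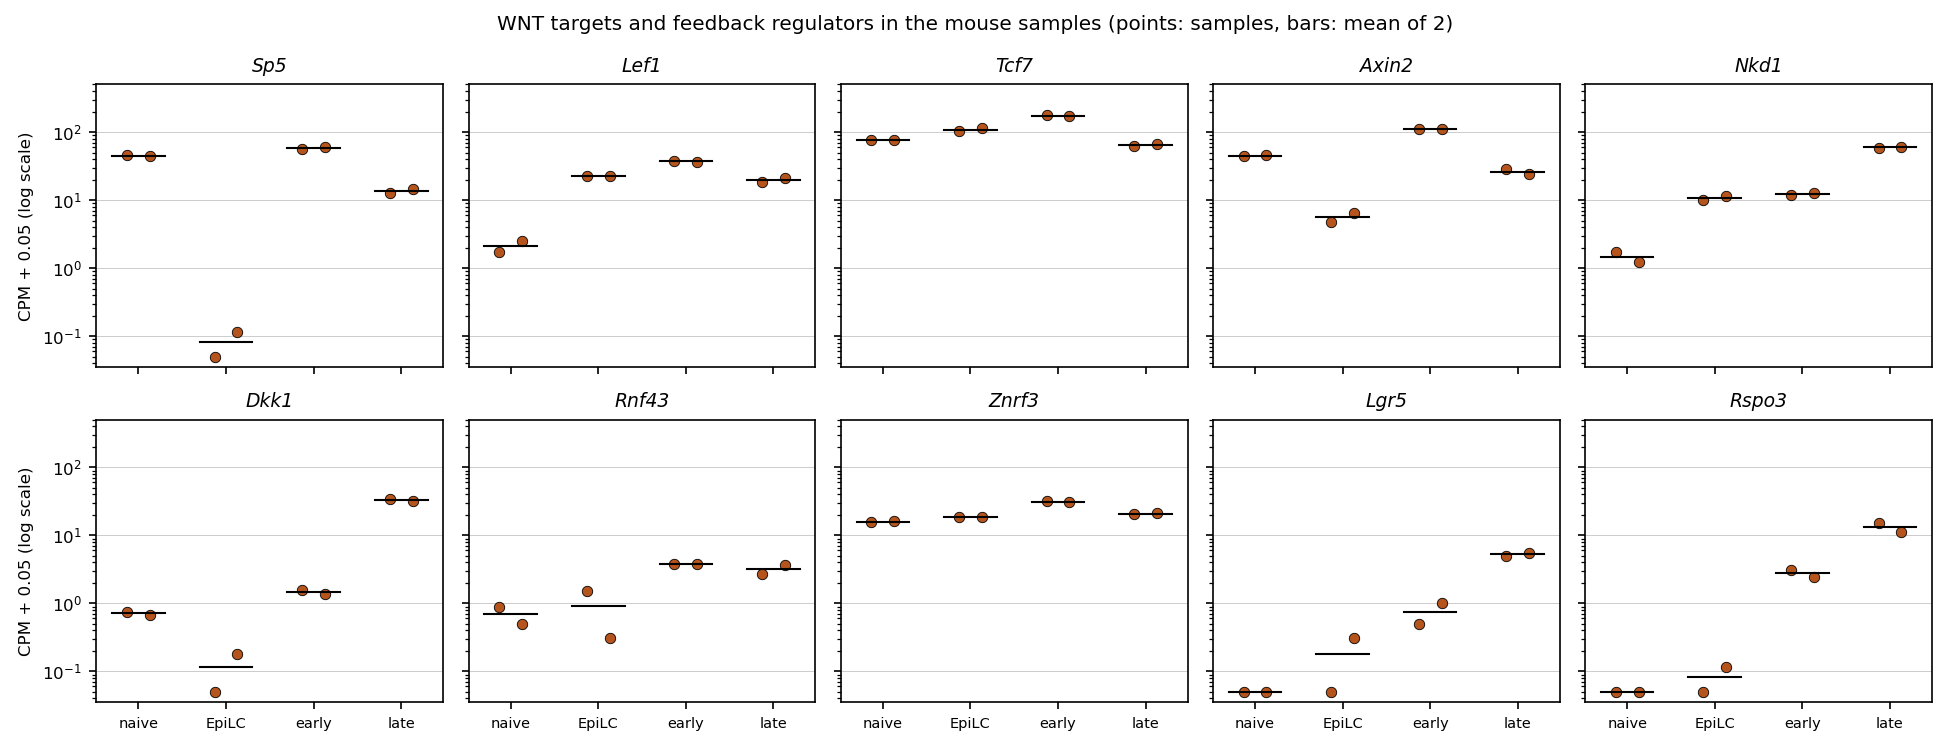
Level of each of the 10 genes in the 8 mouse samples, as CPM plus 0.05 on a log axis, by group. Points are samples and bars are means of 2 samples. Sp5 and Axin2 are low in EpiLCs and high in naive ESCs and early gastruloids, while Dkk1, Nkd1, Lgr5 and Rspo3 are highest in late gastruloids.

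DKK1 encodes a secreted protein that binds LRP co-receptors and blocks WNT reception. The human gene lies at chr10:52314281-52318042 (GRCh38, plus strand). H9 samples had 2 and 0 reads in the naive state and 0 and 5 in the primed state. It stood at 5.24 and 6.05 CPM in RUES2-GLR ESCs, 34.1 and 34.3 CPM in early RA-gastruloids and 18.8 and 19.4 CPM in late ones. The gene was close to silent in the H9 line in both states and present in every RUES2-GLR sample. Its rise into the early stage was 6.27-fold (log2 change 2.65, SE 0.21, adjusted p = 1.99e-12). Late values were lower than early ones by 0.84 on the log2 scale (log2 change -0.84, SE 0.16, adjusted p = 3.68e-05), below the fold threshold.

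Mouse Dkk1 (GRCm39 chr19:30523263-30527065, minus strand) ran the other way at the last step. Its level was 0.698 and 0.628 CPM in naive ESCs, 1.53 and 1.32 CPM in early gastruloids and 34.6 and 31.7 CPM in late gastruloids, and EpiLCs had 0 and 2 reads. Late gastruloids were thus the only mouse group above 2 CPM. The rise from early to late was 22.7-fold (log2 change 4.50, SE 0.20, adjusted p = 1.14e-28). The smaller rise from naive ESCs to early gastruloids (log2 change 1.13, SE 0.45, adjusted p = 0.026) lost the call without naive replicate 1 or 2 or early replicate 1 (0.99 to 1.19) and in DESeq2 (adjusted p = 0.0542).

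RNF43 and ZNRF3 encode membrane ubiquitin ligases that clear Frizzled receptors from the cell surface. RNF43 (GRCh38 chr17:58353676-58417595, minus strand) was low in all human samples, with 4.13 and 3.73 CPM in naive H9 ESCs, 1.33 and 1.05 CPM in primed H9, 1.56 and 1.91 CPM in RUES2-GLR ESCs, 2.79 and 2.62 CPM in early RA-gastruloids, and 0 and 1 reads in late ones. Another annotated gene on the same strand shares 68.35% of its exon length, so these counts cover a part of the gene. Between early and late stages it fell, at a ratio of 82.4 (95% counting interval, 14.8 to 3255; edgeR adjusted p = 9.77e-09). Mouse Rnf43 (GRCm39 chr11:87553548-87626377, plus strand) was at 0.837 and 0.449 CPM in naive ESCs, 1.48 and 0.263 CPM in EpiLCs, 3.75 and 3.69 CPM in early gastruloids and 2.69 and 3.57 CPM in late ones. No such loss was called at the late stage in mouse (log2 change -0.27, SE 0.32, adjusted p = 0.446), and from EpiLCs to late gastruloids the call was lost without EpiLC replicate 2 (1.04, adjusted p = 0.0744). The rise from EpiLCs to early gastruloids (log2 change 2.50, SE 0.42, adjusted p = 6.67e-07) was 3.77 without EpiLC replicate 1 and 1.33 without EpiLC replicate 2, since the EpiLC samples differed.

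ZNRF3 (GRCh38 chr22:28883572-29057488, plus strand) varied least of the human genes. It was at 54.2 and 60.7 CPM in naive H9 ESCs, 46.2 and 49.2 CPM in primed H9, 70.1 and 72.3 CPM in RUES2-GLR ESCs, 46.9 and 51.8 CPM in early RA-gastruloids and 53.5 and 51.1 CPM in late ones. Late, early and primed H9 samples overlapped in turn, and ZNRF3 was not called in any of the 5 human comparisons. Mouse Znrf3 (GRCm39 chr11:5226324-5394939, minus strand) had 15.6 and 16.1 CPM in naive ESCs, 18.5 and 18.9 CPM in EpiLCs, 31.6 and 30.8 CPM in early gastruloids and 20.5 and 21.3 CPM in late ones. Its highest group was the early one, 1.96-fold above naive ESCs (adjusted p = 2.79e-11), just below the fold threshold. It too was not called in any of the 5 mouse comparisons, although 2 of the settings tried took the last value past the threshold.

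RSPO3 encodes an R-spondin, a secreted protein that protects Frizzled receptors from those ligases, and LGR5 encodes a receptor for R-spondins. RSPO3 (GRCh38 chr6:127118671-127199481, plus strand, with 15.67% of its exon length under an antisense pseudogene) was at 1.72 and 1.32 CPM in naive H9 ESCs, had 1 and 2 reads in primed H9 ESCs, and stood at 0.328 and 0.637 CPM in RUES2-GLR ESCs, 229 and 239 CPM in early RA-gastruloids and 8.05 and 8.87 CPM in late ones. Early RA-gastruloids stood 27.9-fold above late ones, the next in order. The rise into the early stage was 9.19 ± 0.24 on the log2 scale (SE, adjusted p = 5.50e-24), or a ratio of 367 (95% counting interval, 102 to 3030) without RUES2-GLR replicate 1, which leaves 2 reads, and the fall into the late stage was by 4.80 ± 0.14 (SE, adjusted p = 4.84e-23). Mouse Rspo3 (GRCm39 chr10:29327285-29411876, minus strand) had 0 reads in both naive ESC samples, which allows up to 0.164 CPM at 3 counts over the group, and 0 and 1 reads in EpiLCs. It was at 3.06 and 2.37 CPM in early gastruloids and at 15.4 and 11.3 CPM in late ones. Early gastruloids were thus at least 17.2-fold higher than naive ESCs (edgeR adjusted p = 5.62e-10), and late gastruloids were 4.82-fold higher than early ones (log2 change 2.27, SE 0.23, adjusted p = 2.70e-13).

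LGR5 stayed low throughout. Human LGR5 (GRCh38 chr12:71439798-71586310, plus strand) had 0 and 1 reads in the naive H9 samples, 5 and 11 in the primed H9 samples and 4 and 0 in the RUES2-GLR samples. It reached 2.50 and 1.82 CPM in early RA-gastruloids and 4.85 and 5.50 CPM in late ones. Gastruloid samples were all above ESC samples. It rose by 3.03 ± 0.63 on the log2 scale (SE, adjusted p = 0.000146) into the early stage, a value that rests on 4 reads in RUES2-GLR replicate 1. Without it the rise was at least 2.27-fold (against 3 counts in the library left). LGR5 then rose by 1.24 ± 0.31 on the log2 scale (SE, adjusted p = 0.00115; DESeq2 adjusted p = 0.0546) into the late stage. Mouse Lgr5 (GRCm39 chr10:115286216-115423685, minus strand) had 0 reads in both naive samples, 0 and 4 in EpiLCs, 0.444 and 0.967 CPM in early gastruloids and 4.90 and 5.51 CPM in late ones. The late rise of 2.99 ± 0.40 on the log2 scale (SE, adjusted p = 2.58e-09) was the clearest, and it was 2.40 without early replicate 1. The call from EpiLCs to early gastruloids (log2 change 1.76, SE 0.78, adjusted p = 0.0462) was lost without EpiLC replicate 1 (adjusted p = 0.2) or early replicate 2 (adjusted p = 0.266) and in 3 other settings (adjusted p of 0.0503 to 0.0853). Without EpiLC replicate 2, which held all 4 reads of its group, it was at least 1.43-fold (against 3 counts in the library left).

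The ESC comparisons of the H9 line asked how naive and primed states differ. From naive H9 to primed H9 ESCs, RSPO3, SP5, RNF43, TCF7 and AXIN2 fell (5 of 10, against 22.3% of all tested genes), and LGR5 and NKD1 rose (2 of 10, against 25.5%). SP5 fell by 3.88 ± 0.39 on the log2 scale (SE, adjusted p = 2.03e-10; 3.23 without primed H9 replicate 2), and AXIN2 by 1.15 ± 0.13 (SE, adjusted p = 3.39e-09). RSPO3 was 28.7-fold lower, with 3 reads in primed H9 ESCs (95% counting interval, 9.83 to 139; edgeR adjusted p = 4.34e-10). NKD1 rose by 1.52 ± 0.14 (SE, adjusted p = 1.63e-11). LGR5 went from 1 read to 16 over both samples, a ratio of 10.4 (95% counting interval, 1.87 to 411; edgeR adjusted p = 0.00808).

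The 2 primed human lines also differed. In RUES2-GLR ESCs, DKK1, SP5, LEF1 and RSPO3 were higher than in H9 ESCs (4 of 10, against 17.1% of all tested genes) and NKD1 was lower (1 of 10, against 12.2%). SP5 was higher by 5.49 ± 0.36 on the log2 scale (SE, adjusted p = 3.68e-14; 4.84 without primed H9 replicate 2). DKK1 was higher by 5.83 ± 0.43 (SE, adjusted p = 6.96e-13), and at least 25.8-fold (against 3 counts in the library left) without primed H9 replicate 2, which held all 5 reads of its group. LEF1 was higher by 3.50 ± 0.38 (SE, adjusted p = 2.61e-09), and the call was lost without RUES2-GLR replicate 1 (2.18, adjusted p = 0.0504). NKD1 was lower, with a log2 change of -1.64 ± 0.17 (SE, adjusted p = 8.98e-10). Scaling moved the split of calls in this comparison. Of all calls 58.4% were higher with TMM, and 68.7% to 71.2% with DESeq2's size factors, DESeq2, upper quartile normalization or a fit of the 2 groups alone, which moved the median of all genes by 0.11 to 0.13 on the log2 scale.

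**Figure D3:**
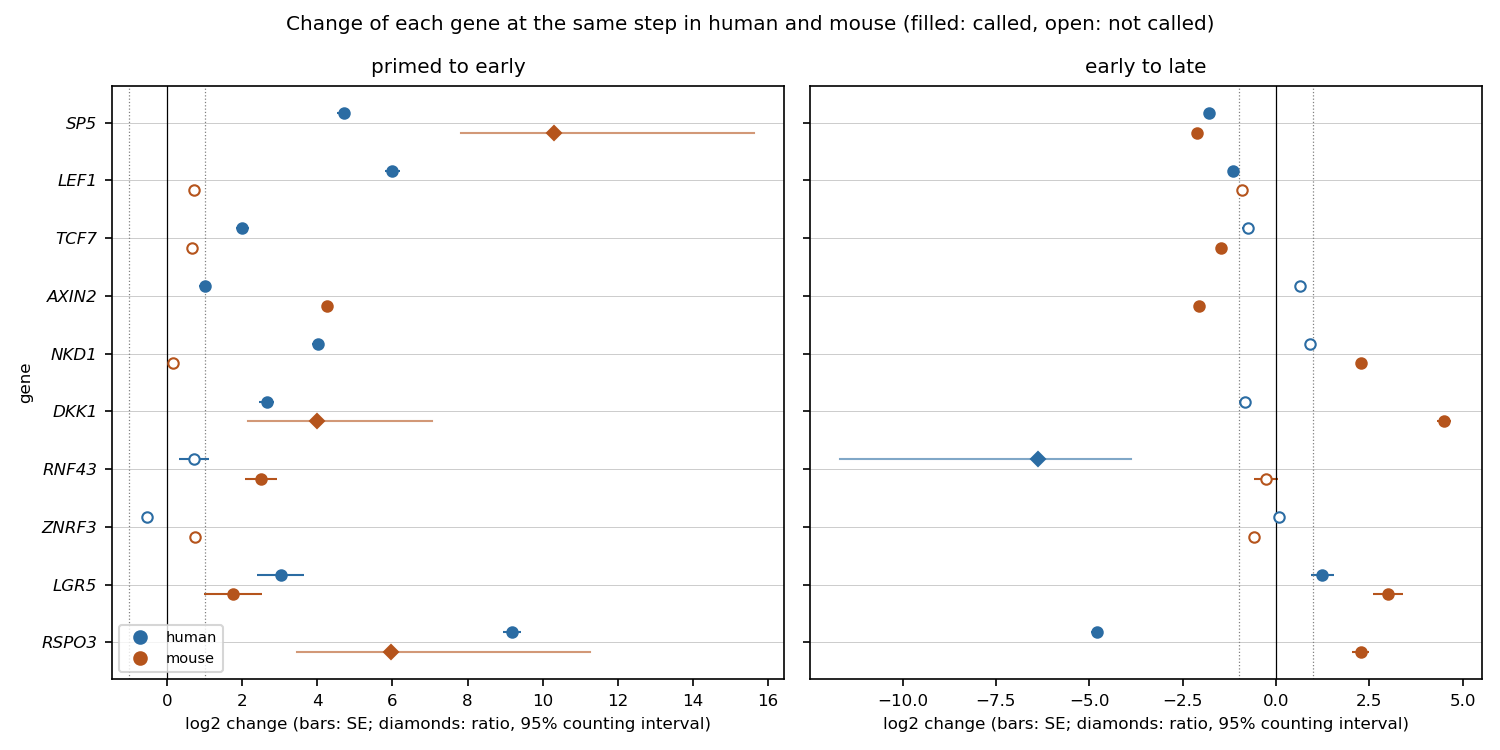
Log2 change of each gene at the same step in human (blue) and mouse (orange), from primed cells to early gastruloids and from early to late gastruloids. Circles are fitted changes with SE bars, diamonds are ratios with 95% counting intervals where a group had 3 reads or fewer, and filled symbols were called. At the last step RSPO3 falls by 4.80 in human and rises by 2.27 in mouse.

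Whether the species differed at a step was tested by an interaction term in 1 fit of all 18 samples over 14008 genes matched by symbol. At the steps that involve gastruloids, species and protocol cannot be told apart. RA and Matrigel were part of the human protocol only, per the study's methods. Sampling times after induction and the numbers of cells seeded also differed between human and mouse gastruloids. From early to late, 6 of 10 genes were called different, where 35.4% of all tested genes were. RSPO3 fell in human and rose in mouse, and the human change was lower by 6.93 on the log2 scale (difference -6.93, SE 0.24, adjusted p = 6.26e-23). DKK1 differed the same way (-5.20, SE 0.26, adjusted p = 9.01e-19). AXIN2 differed in the opposite direction (2.86, SE 0.17, adjusted p = 7.85e-17), since it fell in mouse and was higher in late RA-gastruloids. NKD1 rose more in mouse (-1.22, SE 0.15, adjusted p = 7.46e-09), as did LGR5 (-1.62, SE 0.54, adjusted p = 0.0098), though the latter call was lost without human early replicate 1 (adjusted p = 0.0665) or mouse early replicate 1 (adjusted p = 0.16). RNF43, with 1 read in late RA-gastruloids, was the sixth. For SP5, which fell in both species, the difference was 0.47 ± 0.18 (SE), and for LEF1, which fell in human and changed by -0.92 in mouse without being called, it was -0.07 ± 0.18 (SE). Neither difference was called.

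From primed cells to early gastruloids 7 of 10 genes were called different between species, where 32.6% of all tested genes were. LEF1 rose more in human (5.18, SE 0.23, adjusted p = 3.94e-20; 6.62 without RUES2-GLR replicate 1), as did NKD1 (3.75, SE 0.21, adjusted p = 1.60e-17) and TCF7 (1.21, SE 0.18, adjusted p = 3.57e-07). AXIN2 rose more in mouse (-3.36, SE 0.21, adjusted p = 5.50e-16). ZNRF3 also differed (-1.37, SE 0.16, adjusted p = 2.93e-09). The mouse values start from EpiLCs, which are not the cells the gastruloids were made from. From naive to primed, 8 of 10 genes were called different, against 42.1% of all tested genes. LEF1 (-4.20, SE 0.61, adjusted p = 1.92e-07), TCF7 (-2.08, SE 0.15, adjusted p = 1.69e-14) and NKD1 (-1.58, SE 0.28, adjusted p = 8.82e-06) had lower changes in human than in mouse, and AXIN2 fell less (1.69, SE 0.20, adjusted p = 4.56e-09). Only 6 of the 10 genes had more than 3 reads in all 4 groups of that comparison. The naive media differ between species, as XAV939 was used in human and CHIR99021 in mouse, so species and medium cannot be told apart.

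Levels of different genes can be compared only per length. As TPM, which divides reads by gene length before scaling to the library, ZNRF3 was the highest of the 10 in the 3 human ESC groups, at 25.2 TPM in naive H9, 29.8 TPM in primed H9 and 21.9 TPM in RUES2-GLR ESCs. SP5 was the highest in early and late RA-gastruloids, at 409 ± 1.87 TPM and 119 ± 17.1 TPM (SD, n = 2), followed by RSPO3 at 184 TPM in the early stage and LEF1 at 76.4 TPM in the late stage. In mouse, Tcf7 was the highest in all 4 groups, from 75.6 TPM in late gastruloids to 200 TPM in early ones. Second places went to Sp5 in naive ESCs (70.4 TPM) and early gastruloids (96.9 TPM), to Lef1 in EpiLCs (9.11 TPM) and to Dkk1 in late gastruloids (49.1 TPM). Stretches that overlap other genes lower the TPM of RNF43 and AXIN2, and also, by shares of exon length of 15.67% and 13.07%, that of RSPO3 in human and mouse, of DKK1 (10.22%) and of mouse Lef1 (13.75%).

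Other genes of the pathway moved differently at the same steps. Among 11 tested relatives of the 10 genes, 1 rose and 6 fell from RUES2-GLR ESCs to early RA-gastruloids, a step at which 12.0% of all tested genes were higher and 17.6% lower. SP8, a relative of SP5, rose from 15.5 and 15.6 CPM to 164 and 167 CPM (log2 change 3.42, SE 0.14, adjusted p = 2.93e-19), and LGR6, a relative of LGR5, fell from 7.12 and 7.65 CPM to 0.673 and 0.202 CPM (-4.01, SE 0.41, adjusted p = 6.85e-10). Mouse Sp8 also rose from EpiLCs to early gastruloids, from 1.03 and 0.461 CPM to 13.8 and 13.6 CPM, and Nkd2 fell there, so that 1 of 9 tested relatives was higher (11.7% of all tested genes) and 1 lower (9.24%). In the next step, 3 human relatives rose (11.8% of all tested genes) and 4 fell (13.2%), with the largest rise in NKD2, from 0.865 and 1.51 CPM to 15.5 and 10.8 CPM, and the largest fall in RSPO4, from 5.57 and 6.36 CPM to 2.33 and 1.22 CPM. In mouse, where 20.1% of all tested genes were higher and 19.1% lower, 1 relative rose, Tcf7l2, from 5.19 and 4.31 CPM to 34.1 and 38.1 CPM, and 1 fell, Sp8, to 2.10 and 3.43 CPM.

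WNT receptors, the Frizzled genes with LRP5 and LRP6, were tested as 12 genes. In human 1 rose (against 12.0% of all tested genes) and 8 fell (17.6%) into early RA-gastruloids, with a median log2 change of -1.26 against 0.08 over all genes. FZD5 fell from 263 and 275 CPM to 5.77 and 4.54 CPM (-5.70, SE 0.15, adjusted p = 5.50e-24), and FZD10 rose from 3.77 and 1.91 CPM to 147 and 140 CPM (5.42, SE 0.20, adjusted p = 1.10e-20). From early to late 3 rose (11.8%) and 1 fell (13.2%), led by FZD4, from 3.46 and 4.64 CPM to 13.3 and 13.8 CPM, and by FZD5, down to 2.13 and 2.24 CPM. In mouse, 1 of 12 rose (11.7%) and 3 fell (9.24%) from EpiLCs to early gastruloids. Fzd10 was again the one that rose, from 12.9 and 11.1 CPM to 61.3 and 62.0 CPM (2.40, SE 0.10, adjusted p = 1.38e-28), and Fzd9 fell from 11.5 and 11.3 CPM to 2.22 and 1.93 CPM. Into late gastruloids 5 rose (20.1%) and 1 fell (19.1%), with Fzd1 going from 3.56 and 3.34 CPM to 116 and 115 CPM (5.05, SE 0.12, adjusted p = 7.77e-42) and Fzd10 going down to 29.4 and 26.8 CPM.

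Genes of the transduction core, such as those for β-catenin, APC, GSK3 and Dishevelled, were tested as 14 genes. In human 3 rose (against 12.0% of all tested genes) and 1 fell (17.6%) into early RA-gastruloids, and 2 rose (11.8%) and 0 fell (13.2%) into late ones. In mouse 3 rose and 0 fell both from EpiLCs to early gastruloids (11.7% and 9.24%) and from there to late ones (20.1% and 19.1%), so several of these shares were near those of all genes. PYGO1, a nuclear co-factor of β-catenin, rose from 4.26 and 3.19 CPM to 14.1 and 12.9 CPM into early RA-gastruloids. APC2 fell there from 6.55 and 10.8 CPM to 2.69 and 1.61 CPM and then rose to 49.8 and 33.0 CPM in late ones. In mouse, Bcl9l rose from 12.1 and 16.8 CPM to 39.4 and 37.6 CPM at the first step, and Pygo1 from 3.21 and 3.43 CPM to 35.6 and 37.7 CPM at the second.

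Among other extracellular inhibitors, 3 of 10 tested rose (against 12.0% of all tested genes) and 6 fell (17.6%) into early RA-gastruloids, and 2 rose (11.8%) and 4 fell (13.2%) into late ones. NOTUM, which encodes an enzyme that inactivates WNT ligands, rose from 0.655 and 1.59 CPM to 14.9 and 12.8 CPM (log2 change 4.00, SE 0.36, adjusted p = 4.55e-11). SFRP2, which encodes a secreted Frizzled-related protein, fell from 2051 and 2361 CPM to 98.4 and 97.1 CPM (-4.50, SE 0.12, adjusted p = 7.57e-24) and rose again to 350 and 306 CPM. CER1 had the largest fall into the late stage, from 11.5 and 10.3 CPM to 0.194 and 0.204 CPM. In mouse, 2 of 11 rose (11.7%) and 2 fell (9.24%) from EpiLCs to early gastruloids. Notum rose from 0.444 and 0.329 CPM to 24.2 and 26.0 CPM (6.05, SE 0.24, adjusted p = 4.89e-30), with naive ESCs at 94.1 and 95.2 CPM and late gastruloids at 1.40 and 1.04 CPM. Its levels were thus high in the same mouse groups as those of Axin2. Sfrp5 was 27.4-fold lower in early gastruloids than in EpiLCs, with 3 reads in the early group (95% counting interval, 9.36 to 133; edgeR adjusted p = 8.65e-11). Into late gastruloids 7 rose (20.1%) and 3 fell (19.1%), and Sfrp5 reached 32.9 and 29.8 CPM.

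Further reported targets of the pathway included T-box and CDX genes of the primitive streak and tail. Of 10 tested in human, 6 rose (against 12.0% of all tested genes) and 2 fell (17.6%) into the early stage, and 1 rose (11.8%) and 7 fell (13.2%) into the late stage. MSGN1, a mesoderm gene, had 0 reads in RUES2-GLR ESCs and stood at 271 and 282 CPM in early RA-gastruloids, which is at least 1412-fold higher (edgeR adjusted p = 1.89e-23), and at 0.533 and 0.51 CPM in late ones. MYC moved the other way, from 30.8 and 30.6 CPM to 8.94 and 8.78 CPM and then to 87.7 and 79.6 CPM. In mouse 4 of 8 tested rose (11.7%) and 2 fell (9.24%) from EpiLCs to early gastruloids, and 3 rose (20.1%) and 4 fell (19.1%) into late ones. T rose from 2.37 and 0.855 CPM to 213 and 212 CPM (log2 change 7.31, SE 0.14, adjusted p = 4.56e-46), while Myc fell from 80.6 and 80.1 CPM to 9.04 and 10.6 CPM. Into late gastruloids Bambi rose from 8.94 and 8.79 CPM to 79.1 and 74.8 CPM, and Cdx1 fell from 16.9 and 17.9 CPM to 0.7 and 0.596 CPM. Markers of the primitive streak and early mesoderm were highest in early RA-gastruloids, as were RSPO3, LEF1 and SP5. Summed over TBXT, MIXL1, TBX6 and MSGN1, these markers were at 801 and 845 CPM there and between 2.55 and 12.8 CPM elsewhere. In late RA-gastruloids RSPO3 stood at 8.46 CPM, while LEF1 and SP5 were still at 102 and 61.9 CPM. The part of the streak markers in the values of the 10 genes was not tested. In mouse the sum was 225 and 223 CPM in early gastruloids, of which T held 213 CPM, with Tbx6 at 0.373 CPM and Msgn1 listed at 0.

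**Figure D4:**
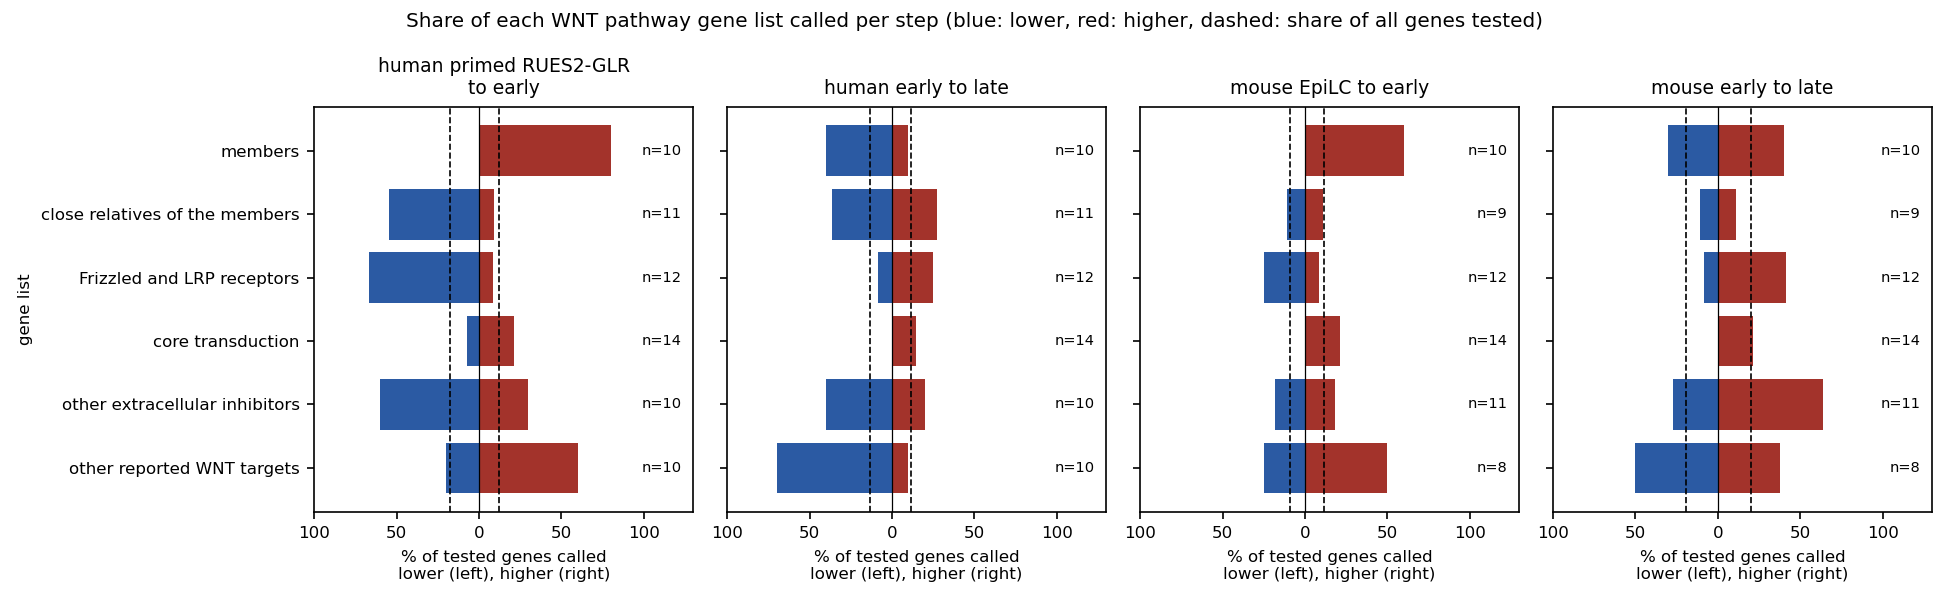
Percent of the tested genes of each WNT list (members are the 10 target and feedback genes) called lower (left, blue) and higher (right, red) at 4 steps, with dashed lines for all tested genes. Of the 10 target and feedback genes 8 are higher at the human early step, where 8 of 12 receptor genes are lower.

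Over the 10 human samples, the highest Pearson correlations of log2 CPM with AXIN2 among 15225 genes were those of INTS6L (r = 0.992), DECR1 (0.987), ERVK13-1 (0.983), MOK (0.981) and CRYZL1 (0.978). Over the 8 mouse samples the closest to Axin2 among 13736 genes were Smcr8 and Mllt6 (both 0.989), and Ubtf, Bnc2 and Limk2 (all 0.988). INTS6L had 10.9 CPM in naive H9, 4.05 in primed H9, 7.78 in RUES2-GLR, 18.4 in early and 37.1 CPM in late samples, the same order as AXIN2. Samples of a group share their culture conditions and so weigh as few points, which makes these values a description and no test.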

How the data were processed

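Bulk RNA-seq of 18 samples was used. Per the study's methods, the authors isolated polyadenylated RNA, used Trimmomatic 0.39 for trimming and STAR for alignment (human GRCh38, mouse GRCm39), and deposited raw read counts per gene from featureCounts, which by default ignores strand and drops reads shared by genes. Such overlaps lower the counts of RNF43 and AXIN2. Read configurations differed between libraries and were not given per sample. The annotation release was not given in the sources used here.

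Symbols came from GENCODE releases 44 and M39. Genes were filtered by filterByExpr (18300 human, 15003 mouse), normalized by TMM and tested with edgeR 4.0.16 (R 4.3.3), all groups of a species in 1 fit. The gene length in the files gave TPM. Ratios against 3 reads or fewer used exact Poisson 95% intervals, which cover counting error only, and the floor was 3 counts over a group. On simulated data, 200 of 200 genes changed by log2 2 were recovered in the human comparison of naive and primed H9 (18300 genes), with 2 false calls. The changed genes were drawn from well-counted ones, at a fixed spread and with no other gene changed. The simulation thus does not cover genes with few reads or changes near the threshold. Other genes were named as the largest called rise and fall of each list at each step, with at least 1 CPM in the higher group, and as the 5 genes closest to AXIN2 in profile. The 10 genes and the lists were chosen with earlier results of these data known. Alternatives were other normalizations, DESeq2 1.42.0, other filters and thresholds, a fit of the compared groups alone, a replicate block and leaving out each replicate.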

Additional observations from a re-analysis of the deposited data

Results flagged for a closer look

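Species differences of the same step were tested for the genes with more than 3 reads in all 4 groups involved, as human minus mouse log2 change. From early to late gastruloids, AXIN2 (2.86), NKD1 (-1.22), DKK1 (-5.20), LGR5 (-1.62) and RSPO3 (-6.93) differed, so 5 of the 9 genes with enough reads. From primed cells to early gastruloids, LEF1 (5.18), TCF7 (1.21), AXIN2 (-3.36), NKD1 (3.75), RNF43 (-1.88) and ZNRF3 (-1.37) differed, 6 of 7. The mouse part of this step starts from EpiLCs, not from the naive ESCs that gave the gastruloids. From naive ESCs to early gastruloids the mouse log2 changes of these genes were 4.11, 1.19, 1.29, 3.15, 2.61 and 0.97, in the same order. The human changes into the early stage were 6.0, 2.0, 1.0, 4.02, 0.72 and -0.53. A species difference with naive ESCs as the start was not tested. From naive to primed cells, LEF1 (-4.20), TCF7 (-2.08), AXIN2 (1.69), NKD1 (-1.58) and RNF43 (-2.01) differed, 5 of 6. Of all tested genes, without this minimum of reads, 35.4%, 32.6% and 42.1% differed at these steps, in the same order. Both values of RNF43 rest on 14 reads in EpiLCs. The naive to primed value was -0.76 without EpiLC replicate 1 and not called, nor was it called without mouse naive replicate 2 (-1.57) or primed H9 replicate 2 (-1.77). The primed to early value was -0.76 without EpiLC replicate 2 and not called, nor was it called without RUES2-GLR replicate 1 (-2.13). Among genes with enough reads, AXIN2 and NKD1 differed at all 3 steps, and their differences changed sign from step to step. The steps share groups, so these differences are not independent of each other. Species cannot be told apart from medium or protocol at any of them.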

How the results depend on the processing

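The count of genes called among the 10 stayed within 1.5 times its value in 102 of 104 results with another setting and in 63 of 64 that left out a replicate. Exceptions were primed H9 to RUES2-GLR with at least 10 counts in each sample of a compared group (3 genes against 5), early to late RA-gastruloids with the adjusted p threshold alone (9 against 5), and the species difference of naive to primed (5 to 8 when replicates were left out, with 5 without mouse naive replicate 2). Fewer members are tested under the stricter filter. The p threshold alone adds TCF7, AXIN2, NKD1 and DKK1, whose log2 changes of -0.76, 0.65, 0.90 and -0.84 lie below the fold threshold. The cause of the last exception was not tested. Changes that reversed were not called in the first place. LGR5 from primed H9 to RUES2-GLR was 0.0391 on the log2 scale with upper quartile normalization and -5.23 to 0.289 with replicates left out. With replicates left out, Rnf43 from naive ESCs to EpiLCs ran from -1.16 to 1.28, the species difference of LGR5 from primed to early from -3.17 to 6.18, and that of LEF1 from early to late from -0.17 to 0.0652. The ends of both LGR5 ranges at -5.23, -3.17 and 6.18 come from fits with a group at 0 reads and are no bounds. Bounds and ratios for groups left with 3 reads or fewer were also added after the data were seen. Ratios of mean TPM, added after the data were seen, reversed 6 of 82 changes and 0 called ones: ZNRF3 from naive to primed H9 (0.24), to the early (0.33) and to the late stage (0.45), and AXIN2 (-0.42), RNF43 (-0.48) and ZNRF3 (-0.44) from primed H9 to RUES2-GLR. On that scale the median of all tested genes itself moved by -1.08 from primed H9 to RUES2-GLR and by 0.90 from there to the early stage.

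Over all genes, the primed lines differed by 2227 lower calls in RUES2-GLR, against 1366 in DESeq2 and 1481 in a fit of the compared groups alone. Same-numbered replicates did not deviate together (correlations of -0.11 to 0.07 in human and -0.05 to 0.01 in mouse), so they share only a number. With a replicate block the species difference of naive to primed had 7 called genes against 8, and no other count of called genes moved. Depth limits LGR5, RNF43, DKK1, RSPO3 and mouse Sp5, each of which had 6 reads or fewer over some group.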
